A study of Homo sapiens with 6 samples.

Results

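The genes of fatty acid synthesis and elongation were described in U251, an established human glioblastoma cell line, after exposure to tumor necrosis factor-α (TNF-α). A gene was included when its symbol in the deposited table of 58735 genes equalled 1 of 35 symbols, which name enzymes, partners and regulators of the pathway, and all 35 were found. The 6 RNA-seq libraries were 3 of cells that received deionized water (NC group) and 3 of cells that received recombinant human TNF-α at 10 ng/mL for 24 h (TNF-α group), and each group consisted of biological replicates according to the labels. All cells were of the same unmodified line, grown in high-glucose medium with fetal bovine serum, so that lipid and cytokines of the serum were present in both groups. The purpose named for the study was the effect of low-dose TNF-α on lipid metabolism in glioblastoma.

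Fatty acids are made in the cytosol from acetyl-CoA. Citrate leaves the mitochondrion, is cleaved to acetyl-CoA, and acetyl-CoA is carboxylated to malonyl-CoA, from which fatty acid synthase builds palmitate. At the endoplasmic reticulum an elongation cycle lengthens the chain, desaturases insert double bonds, and acyl-CoA synthetases activate fatty acids for use in membranes, lipid droplets or oxidation. Much of this programme is transcribed under SREBP-1c, a product of SREBF1, and tumor cells are known for a high rate of de novo synthesis.

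Expression was given as FPKM, the fragments assigned to a gene per kilobase of its exons and relative to a scaled library total, and the number of reads behind each value could be recovered. Between 31992167 and 37897044 reads fell in genes per library, and 3 reads in a gene of 2 kb corresponded to 0.0415 to 0.0618 FPKM, a limit that covers counting error only. TNF-α replicates 2 and 3 stood apart from the other 4 libraries. The reads in genes over 8 kb were 16.6% and 17.9% of the total there and 28.8% to 29.1% in NC and TNF-α replicate 1. Ribosomal protein genes held 8.11% and 6.96% of the reads there and 2.90% to 3.22% elsewhere. All 8 genes of a list of known TNF targets were higher in the TNF-α group at an adjusted p under 0.05, with log2 fold changes between 2.45 and 5.33, and NFKBIA, an inhibitor of NF-kB, was at 2.79. Of 7 glioma and astrocyte markers VIM, NES and SOX2 stood at 22.6 FPKM or more in every library, GFAP stood at 7.10 to 9.47 FPKM in NC and 1.58 to 2.60 FPKM in TNF-α, AQP4 was listed at 0 and S100B and OLIG2 were at or near 0. The summed level of these 7 was 435 to 482 FPKM in NC and 534 to 1069 FPKM in TNF-α. Most of this sum was VIM, at 325 to 362 FPKM in NC and at 434, 974 and 850 FPKM in TNF-α replicates 1 to 3. SOX2 stood at 58.9 to 66.3 FPKM in NC and at 57.8, 22.6 and 30.4 FPKM in TNF-α, so the markers did not move together. Of the 5 leukocyte markers PTPRC and CD3E were listed at 0, and the sum was 0.660 to 0.880 FPKM in NC and 0.528 to 1.66 FPKM in TNF-α, nearly all from CD14. Endothelial and fat or liver cell markers summed to at most 0.342 and 0.289 FPKM in any library. The part of these differences in the results below was not tested, except where values with a correction or without libraries are given, and in bulk RNA fewer cells of a type and less RNA per cell cannot be told apart.

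Of the 35 genes 28 reached 1 FPKM in at least 3 libraries and were tested among 12136 genes. FASN, ACLY, ELOVL1 and ELOVL5 were the most abundant in NC, between 72.2 and 123 FPKM, and ME1, MLXIPL, THRSP, OLAH and ACSL6 were at 0.132 FPKM or less in every library. The values compared between genes here are per length.

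**Figure D1:**
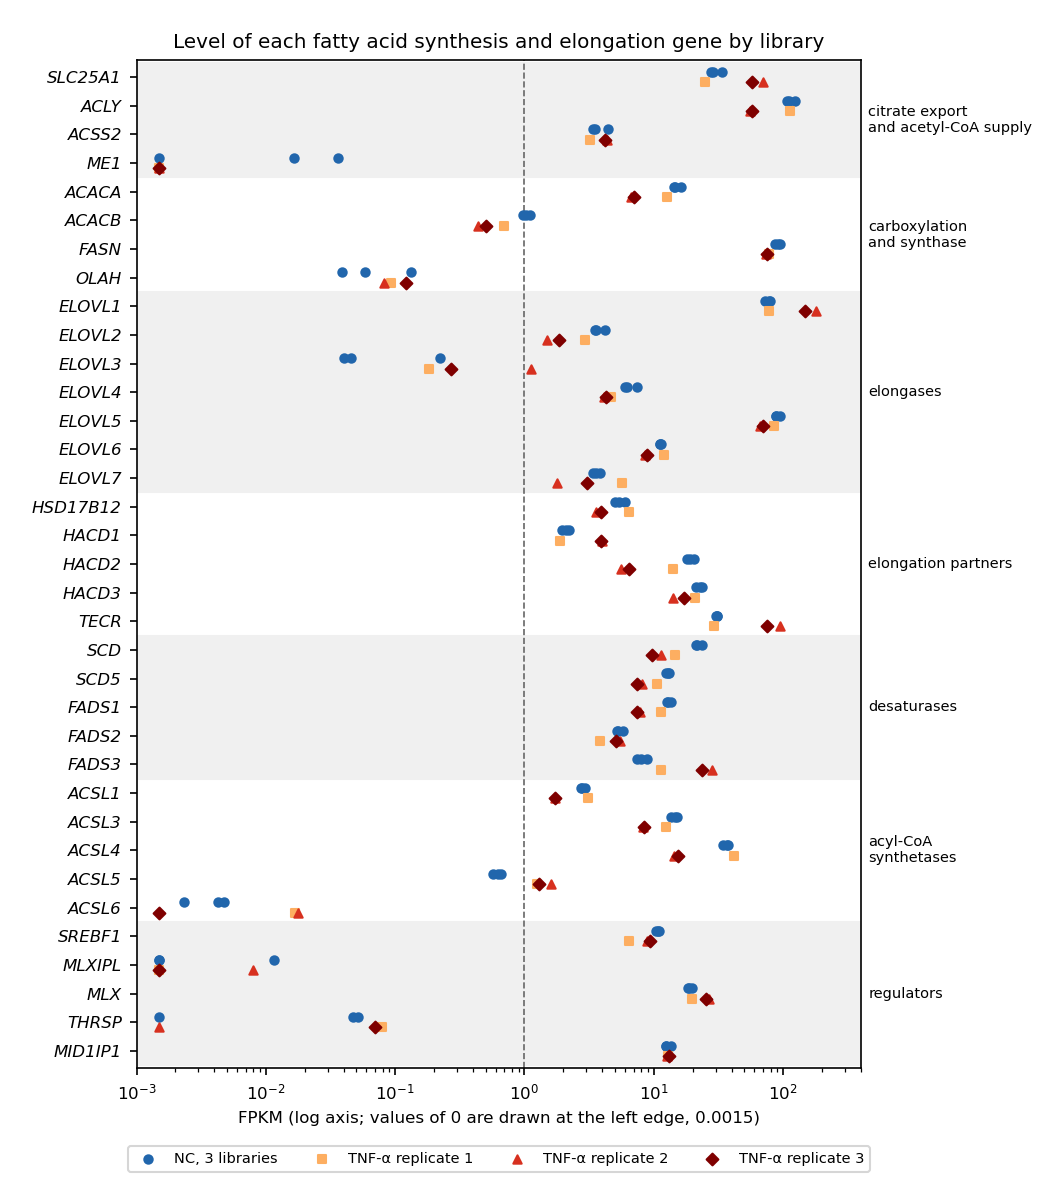
FPKM of each of the 35 genes by library on a log axis, grouped by step, with blue circles for the 3 NC libraries and a square, triangle and diamond for TNF-α replicates 1, 2 and 3. The dashed line marks 1 FPKM, and 7 genes lie under it in at least 4 libraries. In many rows replicates 2 and 3 lie together and replicate 1 lies nearer to NC, as for TECR, ACLY and ACSL4.

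No tested gene of the pathway passed the threshold of an adjusted p under 0.05 (limma on log2(FPKM + 1), Benjamini-Hochberg over 12136 genes), which 123 genes or 1.01% of all genes tested did (10 to 9630 genes when any 1 library was left out). The smallest adjusted p belonged to SCD at 0.105. At an unadjusted p under 0.05, 8 of the 28 genes were lower (ACACA, ELOVL2, ELOVL4, HACD2, SCD, SCD5, FADS1 and ACSL3) and 2 were higher (FADS3 and ACSL5), beside 11.9% and 12.3% of all genes tested. The 3 TNF-α values lay under all 3 NC values in 12 of the 28 genes and above them in 2 (FADS3 and ACSL5), beside 15.3% and 14.8% of all genes. ACSL5 met the filter only through the TNF-α group, so its place in both counts of higher genes is no support for a rise. In all, 19 fold changes were below 0 and 9 above 0, with a median of -0.28 on the log2 scale against 0.04 over all genes. Against the NC mean this median was -0.10, -0.47 and -0.33 for TNF-α replicates 1 to 3. limma-voom on the recovered reads called none of the 28 genes either.

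**Figure D2:**
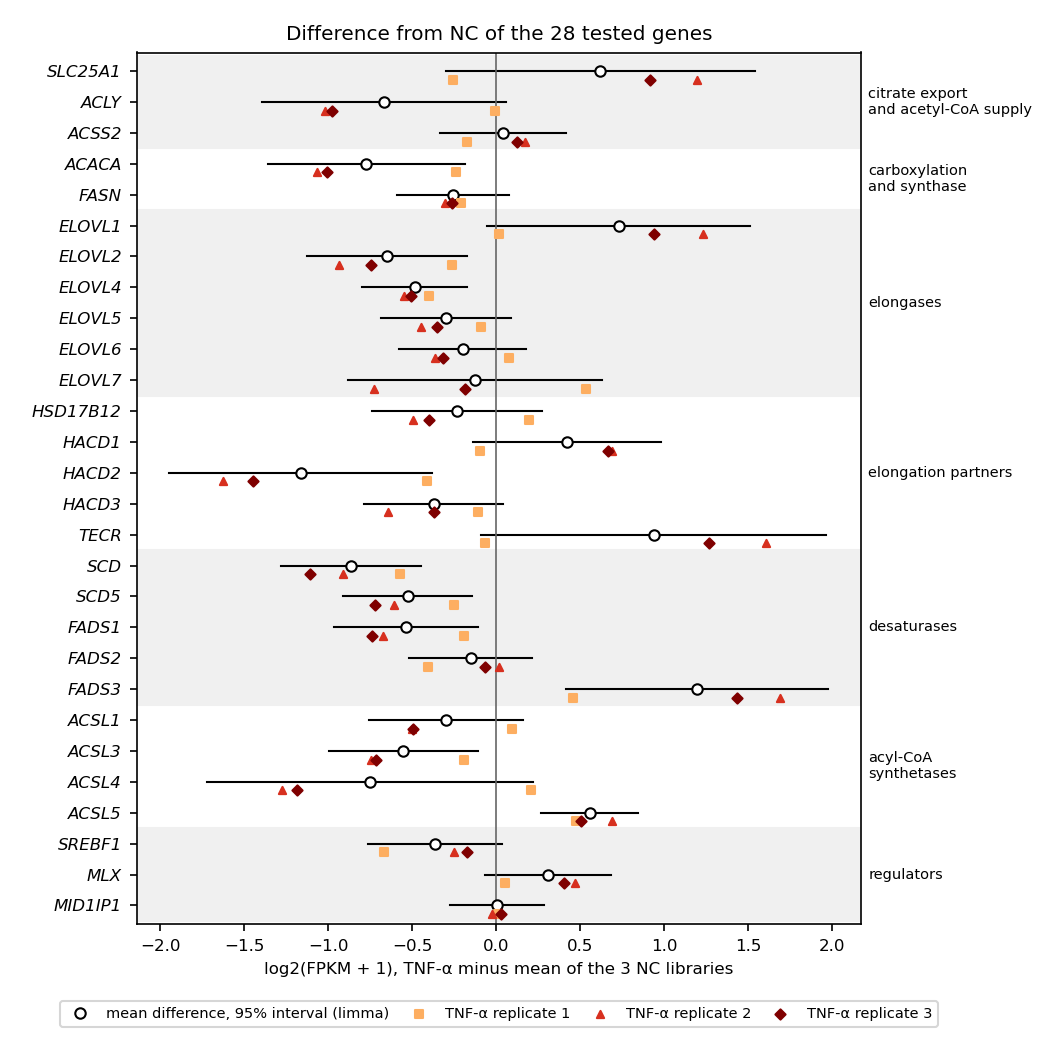
Difference from NC of the 28 tested genes in log2(FPKM + 1). Open circles and lines give the limma estimate with its 95% interval, and coloured symbols give each TNF-α library minus the mean of the 3 NC libraries. The intervals of 10 genes do not reach 0, among them SCD and HACD2 below and FADS3 and ACSL5 above it. ACSL5 met the filter only through the TNF-α group.

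The supply of cytosolic acetyl-CoA was measured through SLC25A1, ACLY, ACSS2 and ME1. SLC25A1, the mitochondrial citrate carrier, stood at 28.7, 27.7 and 33.7 FPKM in NC replicates 1 to 3 and at 24.9, 69.9 and 57.5 FPKM in TNF-α replicates 1 to 3. TNF-α replicate 1 lay under all NC libraries and the other two well above them, so that the groups overlapped, and the fold change was 0.62 ± 0.38 (log2 ± SE, n = 3 per group, limma adjusted p = 0.248). ACLY, which cleaves citrate to acetyl-CoA and oxaloacetate, stood at 112, 106 and 123 FPKM in NC and at 113, 55.4 and 57.1 FPKM in TNF-α. Replicate 1 was within the NC range and replicates 2 and 3 were far under it, and the fold change was -0.67 ± 0.30 (limma adjusted p = 0.195). ACSS2, which makes acetyl-CoA from acetate, lay between 3.38 and 4.40 FPKM in NC and between 3.21 and 4.33 FPKM in TNF-α, with a fold change of 0.04 and a 95% interval from -0.33 to 0.42. ME1, the cytosolic malic enzyme and a source of NADPH, had 2, 4 and 0 reads in NC and was listed at 0 in the TNF-α libraries, where 3 reads would be 0.0277 to 0.0367 FPKM, so that no difference was detectable at this depth.

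The committed step and the synthase followed. FASN, the multifunctional enzyme that assembles palmitate (chr17:82078333-82098332, minus strand, GRCh38), stood at 86.0, 91.7 and 95.02 FPKM in NC and at 78.4, 73.4 and 75.7 FPKM in TNF-α. All 3 TNF-α libraries lay under all 3 NC libraries, and the means were 90.9 ± 4.58 and 75.8 ± 2.46 FPKM (SD, n = 3). The log2 fold change of -0.26 had a 95% interval from -0.59 to 0.08 and did not pass the threshold (limma adjusted p = 0.212). The 3 TNF-α libraries differed little for FASN, at -0.21, -0.30 and -0.26 from the NC mean, and among the tested genes only MID1IP1 had a narrower spread. ACACA, the acetyl-CoA carboxylase of the cytosol (chr17:37084988-37406818, minus strand), stood at 14.4, 14.7 and 16.4 FPKM in NC and at 12.7, 6.69 and 7.03 FPKM in TNF-α. Its groups did not overlap, with replicate 1 nearest to NC, and the fold change was -0.77 ± 0.24 (limma adjusted p = 0.195). ACACB, the carboxylase at the mitochondrial surface, missed the filter at 0.967, 1.02 and 1.09 FPKM in NC and 0.693, 0.436 and 0.4997 FPKM in TNF-α. These values rest on 485 to 510 and 164 to 323 reads and did not overlap, and with a filter of 0.1 FPKM the fold change was -0.40 ± 0.11 (limma adjusted p = 0.212). The share of ACACA in the sum of both carboxylases stayed between 93.4% and 94.8% in the 6 libraries. OLAH, a thioesterase that ends synthesis at medium chain length, had 3 to 10 reads per library in both groups.

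The elongases, which set the chain lengths that can be made, split in level and in direction. ELOVL1, which elongates saturated and monounsaturated very long chains, stood at 79.0, 72.2 and 78.3 FPKM in NC and at 77.3, 180.5 and 148 FPKM in TNF-α. Replicate 1 was within the NC range and replicates 2 and 3 were far above it, with a fold change of 0.73 ± 0.32 (limma adjusted p = 0.195). ELOVL5, which elongates polyunsaturated chains, stood at 87.7, 94.9 and 88.1 FPKM in NC and at 84.5, 65.95 and 70.3 FPKM in TNF-α. All 3 TNF-α values lay under NC, replicate 1 by little, and the fold change was -0.30 ± 0.16 (limma adjusted p = 0.212). ELOVL2, another elongase of polyunsaturated chains, stood at 3.53, 4.18 and 3.58 FPKM in NC and 2.96, 1.49 and 1.83 FPKM in TNF-α. Its groups did not overlap either, and the fold change was -0.65 ± 0.20 (limma adjusted p = 0.195).

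ELOVL4, known for chains of extreme length in retina, skin and brain, stood at 6.20, 7.42 and 5.99 FPKM in NC and at 4.70, 4.15 and 4.28 FPKM in TNF-α. The 3 TNF-α libraries were close together and under every NC library, with a fold change of -0.48 ± 0.13 (limma adjusted p = 0.185). ELOVL6, which turns palmitate into stearate, was at 11.2 to 11.4 FPKM in NC and at 11.9, 8.55 and 8.86 FPKM in TNF-α, so that replicate 1 lay above and replicates 2 and 3 under the NC range. ELOVL7, an elongase of saturated chains, had TNF-α libraries on both sides of NC, at 3.56, 3.86 and 3.36 FPKM in NC and at 5.66, 1.77 and 3.04 FPKM in TNF-α. The fold changes of ELOVL6 and ELOVL7 were -0.20 and -0.12, with 95% intervals from -0.58 to 0.18 and from -0.88 to 0.63. ELOVL3, an elongase of brown fat and skin, missed the filter with 2, 10 and 2 reads in NC and 8, 40 and 9 reads in TNF-α, and the group ranges overlapped.

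The partners of the elongases run the rest of the cycle. HACD2, a 3-hydroxyacyl-CoA dehydratase, had the lowest fold change of the pathway, at 19.2, 20.5 and 17.98 FPKM in NC and 14.2, 5.56 and 6.40 FPKM in TNF-α. The groups did not overlap and the fold change was -1.16 ± 0.32 (limma adjusted p = 0.195), of which replicate 1 showed -0.41. HACD3, a related dehydratase, stood at 22.8, 23.7 and 21.4 FPKM in NC and at 20.9, 14.1 and 17.3 FPKM in TNF-α, with a fold change of -0.37 ± 0.17 (limma adjusted p = 0.195). HACD1, the dehydratase of muscle, was at 1.96 to 2.20 FPKM in NC and at 1.89, 3.97 and 3.89 FPKM in TNF-α. TECR, the reductase that closes the cycle, stood at 30.7, 30.2 and 30.9 FPKM in NC and at 29.2, 95.3 and 75.1 FPKM in TNF-α. Replicate 1 lay just under NC while the other two were far above, and the fold change was 0.94 ± 0.42 (limma adjusted p = 0.195). HSD17B12, the ketoacyl-CoA reductase, was at 5.00 to 6.02 FPKM in NC and at 6.40, 3.57 and 3.90 FPKM in TNF-α, with 21.6% of its exon bases shared with other genes. Strand use in counting was not given in the sources used here, so that reads of genes with shared exon bases are uncertain.

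Among the desaturases SCD was the gene of the pathway with the smallest p. SCD, which inserts the first double bond into palmitate and stearate (chr10:100347124-100364834, plus strand), stood at 21.3, 23.6 and 21.7 FPKM in NC and at 14.6, 11.3 and 9.75 FPKM in TNF-α. Every TNF-α library lay well under every NC library, and the means were 22.2 ± 1.23 and 11.9 ± 2.49 FPKM (SD, n = 3). The fold change was -0.86 ± 0.17, with a 95% interval from -1.28 to -0.45 and a limma adjusted p of 0.105. SCD5, another stearoyl-CoA desaturase that is abundant in brain, stood at 13.1, 12.9 and 12.5 FPKM in NC and at 10.6, 8.08 and 7.38 FPKM in TNF-α. It was lower in all 3 TNF-α libraries as well, with a fold change of -0.53 ± 0.16 (limma adjusted p = 0.195). The sum of SCD and SCD5 was 34.2 to 36.5 FPKM in NC and 25.2, 19.4 and 17.1 FPKM in TNF-α, and the share of SCD in it was 61.9% to 64.6% in NC and 56.9% to 58.3% in TNF-α.

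The front-end desaturases FADS1 and FADS2 and their relative FADS3 lie beside each other on chromosome 11, FADS2 at chr11:61792980-61867354 on the plus strand, and FADS1 at chr11:61799625-61829318 and FADS3 at chr11:61873519-61892051 on the minus strand. FADS1, the delta-5 desaturase of polyunsaturated fatty acid synthesis, stood at 12.7, 12.9 and 13.6 FPKM in NC and at 11.3, 7.81 and 7.42 FPKM in TNF-α. It was lower in each TNF-α library, with a fold change of -0.53 ± 0.18 (limma adjusted p = 0.195). FADS2, the delta-6 desaturase, stood at 5.25, 5.16 and 5.76 FPKM in NC and at 3.82, 5.47 and 5.10 FPKM in TNF-α, so that only replicate 1 was clearly under the NC range. FADS3, which acts on sphingoid bases, stood at 7.43, 7.93 and 8.80 FPKM in NC and at 11.4, 28.2 and 23.5 FPKM in TNF-α. It was higher in every TNF-α library, by 0.46, 1.69 and 1.44 on the log2 scale, and the fold change of 1.20 ± 0.32 was the highest of the pathway (limma adjusted p = 0.185). FADS1 shares 5.57% of its exon bases with other genes and FADS2 shares 4.89%, in part with each other, and FADS3 shares none.

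**Figure D3:**
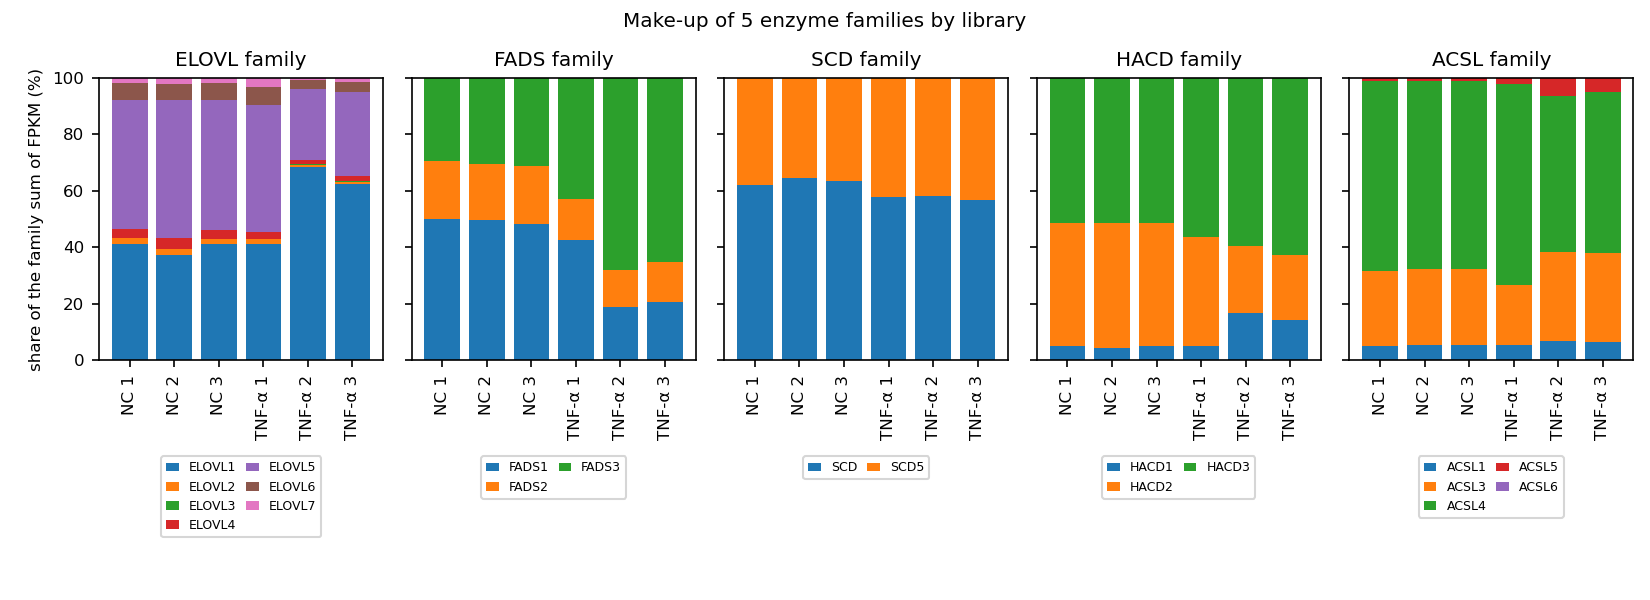
Share of each gene in the summed FPKM of its family, in percent, for each library. ELOVL1 and FADS3 take over 60% of their families in TNF-α replicates 2 and 3, and no more than 43.0% in TNF-α replicate 1 or any NC library.

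The make-up of the families followed from these levels. ELOVL1 made up 37.2% to 41.3% of the elongase sum in NC and 41.3%, 68.5% and 62.5% in TNF-α, while ELOVL5 made up 45.9% to 48.9% and then 45.1%, 25.0% and 29.7%. FADS3 made up 29.3% to 31.3% of the FADS sum in NC and 43.0%, 67.9% and 65.2% in TNF-α, more in each TNF-α library than in any NC library. FADS1 took 48.3% to 50.1% of that sum in NC and 42.6%, 18.9% and 20.6% in TNF-α. Among the dehydratases HACD2 took 43.4% to 44.5% in NC and 38.4%, 23.5% and 23.2% in TNF-α. In TNF-α replicate 1 the shares of FADS3, HACD2 and SCD were outside the NC range and that of ELOVL1 was within it. These shares are ratios within a library and do not depend on the library total, but they carry the difference in composition of replicates 2 and 3. With 3 corrections of each library for GC content and transcript length, the fold change of ELOVL1 was 0.21 to 0.36 and that of FADS3 was 1.17, 0.51 and 0.58.

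Of the acyl-CoA synthetases for long chains ACSL4, which prefers arachidonate and supplies the lipids peroxidised in ferroptosis, was the most abundant in NC. It stood at 36.8, 37.6 and 34.1 FPKM in NC and at 41.9, 14.4 and 15.3 FPKM in TNF-α, so that replicate 1 lay above and replicates 2 and 3 far under NC, with a fold change of -0.75 ± 0.40 (limma adjusted p = 0.212). ACSL3, an enzyme of nascent lipid droplets, stood at 14.6, 15.2 and 13.6 FPKM in NC and at 12.5, 8.23 and 8.40 FPKM in TNF-α. It was lower in all 3 libraries, with a fold change of -0.55 ± 0.18 (limma adjusted p = 0.195). ACSL1, the main form of liver and fat, was at 2.76 to 2.96 FPKM in NC and at 3.09, 1.71 and 1.72 FPKM in TNF-α, and the groups overlapped. ACSL5, a mitochondrial and endoplasmic reticulum form, had 95, 92 and 77 reads in NC and 170, 176 and 133 reads in TNF-α, or 0.621, 0.662 and 0.566 against 1.25, 1.60 and 1.29 FPKM. The 3 TNF-α libraries lay close together and at 2.24 times the NC mean on average, with a fold change of 0.56 ± 0.12 (limma adjusted p = 0.128). ACSL5 met the filter only through the TNF-α group, so a gene of its level could enter the test only by being higher there, and 8.64% of its exon bases are shared with other genes. ACSL6, a form of neurons, had at most 7 reads in any library.

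The regulators were SREBF1, MLXIPL with its partner MLX, THRSP and MID1IP1. SREBF1, which encodes SREBP-1 (chr17:17810399-17837002, minus strand), stood at 10.4, 11.03 and 10.8 FPKM in NC and at 6.39, 8.86 and 9.41 FPKM in TNF-α. It was lower in every TNF-α library, and unlike most genes of the pathway it was farthest from NC in replicate 1, with a fold change of -0.36 ± 0.16 (limma adjusted p = 0.195). MLX, the partner of the carbohydrate-response factors, was at 18.4 to 19.9 FPKM in NC and at 19.8, 26.8 and 25.5 FPKM in TNF-α. MLXIPL, which encodes the carbohydrate-response factor ChREBP, and THRSP, a lipogenic protein of liver and fat, had at most 3 reads in any library. MID1IP1, which binds acetyl-CoA carboxylase and promotes its polymerisation, was the gene of the pathway that differed least, at 12.3 to 13.6 FPKM in NC and 12.6 to 13.02 FPKM in TNF-α, with a 95% interval of the fold change from -0.28 to 0.29. The sign of the fold changes of MID1IP1, ACSS2 and MLX depended on the scaling. All 3 were below 0 in TPM, where the median of all genes was itself -0.42.

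The promoters were read for the motifs to which lipogenic regulators are known to bind. Of the 35 genes 32 were matched in the table of RefSeq promoters used here (GRCh38.p14), and FASN, OLAH and HSD17B12 were not matched in it. In the 250 bases before each start, on both strands, the NF-Y box CCAAT was found in 19 of the 32 genes and in 37.0% of all 27305 genes with an entry. The E-box CACGTG was found in 3 genes (ELOVL4, ELOVL5 and MLX, 9.38%, against 7.73% of all genes) and the sterol regulatory element TCACNCCAC in 3 genes (ACSL1, ACSL6 and MID1IP1, 9.38%, against 1.09%). SCD and SREBF1 are shown because these genes passed the threshold both against TNF-α replicate 1 alone and with the planned correction for GC content and length, and MID1IP1 because it holds a sterol regulatory element and differed least. The 3 windows are chr10:100346983-100347123 (plus strand, 141 bases), chr17:17837003-17837236 (minus strand, 234 bases) and chrX:38801209-38801431 (plus strand, 223 bases), each 5′ to 3′ and ending before the annotated gene, with matches in capitals.
SCD: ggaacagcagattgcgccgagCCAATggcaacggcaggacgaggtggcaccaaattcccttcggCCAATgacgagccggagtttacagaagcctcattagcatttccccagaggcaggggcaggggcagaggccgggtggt
SREBF1: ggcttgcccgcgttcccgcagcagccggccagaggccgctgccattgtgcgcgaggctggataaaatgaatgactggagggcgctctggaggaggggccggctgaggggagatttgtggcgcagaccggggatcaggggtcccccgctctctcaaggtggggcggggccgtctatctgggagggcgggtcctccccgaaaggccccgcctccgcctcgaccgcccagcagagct
MID1IP1: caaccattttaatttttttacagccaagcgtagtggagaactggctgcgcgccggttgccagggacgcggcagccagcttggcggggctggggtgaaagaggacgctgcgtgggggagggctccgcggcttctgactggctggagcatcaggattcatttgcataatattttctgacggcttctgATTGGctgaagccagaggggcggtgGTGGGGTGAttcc
In SCD both capitalised runs are CCAAT, at positions -229 and -186 from the RefSeq start. In MID1IP1 the first run is CCAAT read on the other strand, at -65, and the next is the sterol regulatory element on the other strand, at -40. The SREBF1 window holds none of the 3 motifs. For SREBF1 only the start at the outer end of the annotated gene was read, so a start within the gene, such as one for SREBP-1c, is not covered. These are matches of letters and say nothing of binding in these cells.

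TNF-α replicate 1 and TNF-α replicates 2 and 3 differed in the values of the pathway, as they did in the composition of the whole libraries. A difference from the NC mean of more than 0.5 on the log2 scale was seen for 3, 18 and 16 of the 28 genes in replicates 1 to 3. In replicate 1 these were SREBF1 and SCD below and ELOVL7 above NC. The share of all genes tested with such a difference is not given here, so the counts do not set the pathway apart. Across the 28 genes the difference from NC and the GC content of the transcript had a Spearman correlation of -0.19, 0.60 and 0.53 for TNF-α replicates 1 to 3, beside -0.11, 0.47 and 0.46 over all 12131 genes with a value. Genes of 1 library share its depth and composition, so these are descriptions. GC-rich transcripts such as SLC25A1 (65.6%), FADS3 (62.6%) and TECR (60.7%) were above NC in replicates 2 and 3, and AT-rich transcripts such as ACSL4 (37.4%), HACD2 (40.6%) and ACSL3 (38.1%) were below NC. HACD1 (40.7%) was AT-rich and above NC in replicates 2 and 3, at 0.69 and 0.67. FADS2 (60.7%) was GC-rich and close to NC in replicates 2 and 3, at 0.02 and -0.07. FASN (65.3%) and SREBF1 (64.7%) were GC-rich and below NC in all 3 TNF-α libraries, and both are long, with 9364 and 8030 exon bases. Length and difference from NC had a Spearman correlation of -0.09, -0.27 and -0.29 across the 28 genes for TNF-α replicates 1 to 3. Over all 12131 genes it was 0.05, -0.41 and -0.42. The part of GC content and length in single genes was not tested here.

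**Figure D4:**
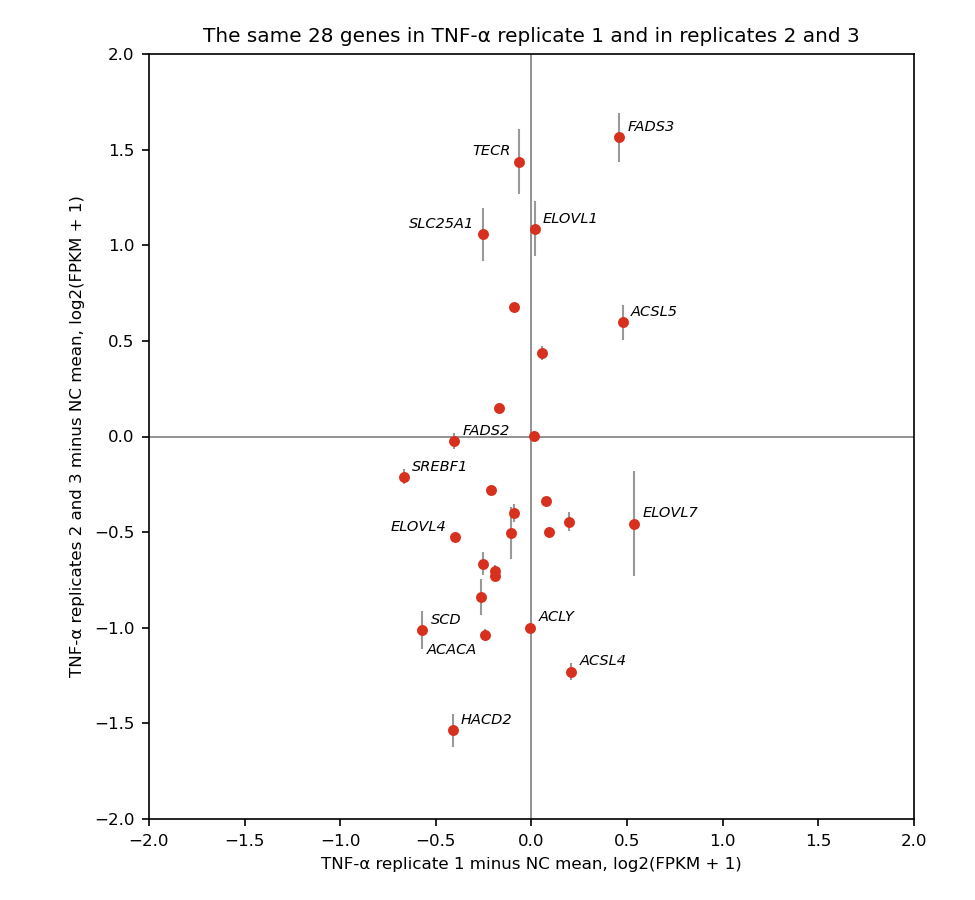
The 28 tested genes by their difference from the NC mean in TNF-α replicate 1 (horizontal) and in TNF-α replicates 2 and 3 (vertical, point at the mean, line from the lower to the higher value), both in log2(FPKM + 1). The points spread from -1.54 to 1.56 on the vertical axis and from -0.67 to 0.54 on the horizontal axis. Of the 28 genes 19 have the same sign on both axes, 14 below and 5 above 0. The share of all genes tested with the same sign is not given here.

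When TNF-α replicate 1 was left out, 25 of the 28 genes passed the threshold, 7 higher and 18 lower, beside 79.4% of all genes tested. The fold changes were then 1.06 for SLC25A1, -0.999 for ACLY, -1.04 for ACACA, 1.09 for ELOVL1, 1.44 for TECR, -1.23 for ACSL4 and -0.28 for FASN (limma adjusted p = 0.00996). When the 3 NC libraries were compared with TNF-α replicate 1 alone, 3 of the 28 genes passed, beside 6.03% of all genes. SCD was lower, at -0.57 (limma adjusted p = 0.0164), SREBF1 was lower, at -0.67 (limma adjusted p = 0.0068) and ELOVL7 was higher, at 0.54 (limma adjusted p = 0.0291), and FASN was at -0.21. Here the single TNF-α library was assumed to vary like the NC libraries. No other library left out gave a call among the 28 genes.

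A correction of each library for GC content and transcript length changed which genes passed. With the longest transcript of each gene, SCD (-0.62, limma adjusted p = 0.0270) and SREBF1 (-0.58, limma adjusted p = 0.0259) were lower past the threshold, beside 2.79% of all genes tested. With the longest coding transcript, chosen after the data had been seen, 4 genes passed, beside 3.29% of all genes, namely SCD at -0.59, SREBF1 at -0.59, FADS2 at -0.44 and FADS3 at 0.51. With the mean over coding transcripts, also chosen afterwards, 3 genes passed, beside 2.93% of all genes. SREBF1 was then at -0.77, FADS2 at -0.57 and FADS3 at 0.58, and SCD at -0.39 was not past the threshold (limma adjusted p = 0.150). FASN stood at -0.10, -0.056 and -0.49 under the 3 corrections and passed in none. It stood at -0.76 in TPM, at -0.76 with quantile normalization and at -0.53 with limma-voom and passed in none of these, while the median of all genes was -0.42, 0.0081 and -0.21. Quantile normalization called ACSL5 alone (0.84, limma adjusted p = 0.04998), beside 1.52% of all genes, and ACSL5 had met the filter only through the TNF-α group. The sign was kept through every alternative run by 17 of the 28 genes, 12 of which had TNF-α values under all NC values. The share of all genes tested that kept their sign is not given here, so these counts do not set the pathway apart. All alternatives reuse the same 6 libraries. SREBF1 passed the threshold in 5 alternatives, SCD in 4 and FADS3 in 3, and FASN passed in 1. These passes are not separate support for a change. Each count holds the run without TNF-α replicate 1, where 79.4% of all genes passed, and FASN passed only there. The other passes of FADS3 came from the corrections chosen afterwards, and with the planned correction it did not pass (limma adjusted p = 0.110).

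**Figure D5:**
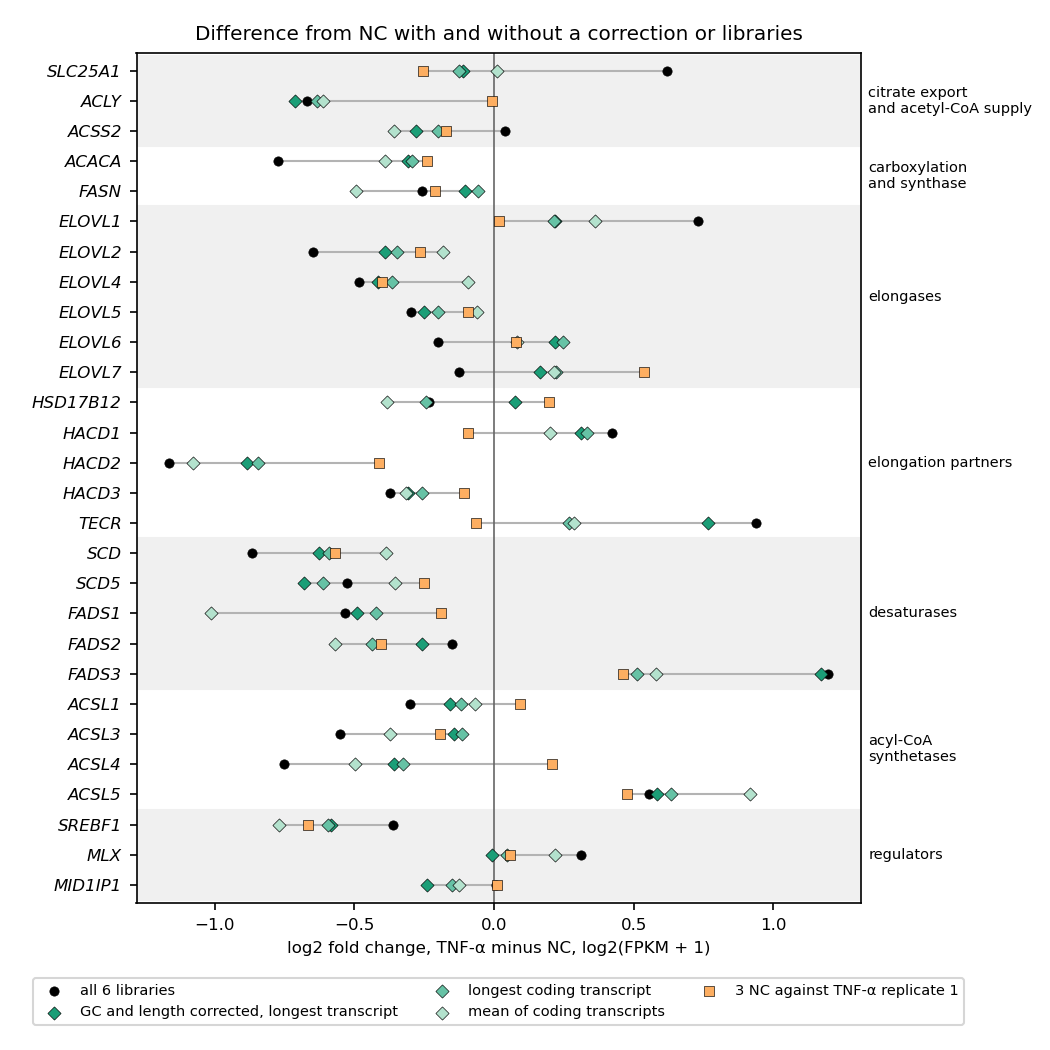
Log2 fold change (TNF-α minus NC, log2(FPKM + 1)) of the 28 tested genes with all 6 libraries (black), after 3 versions of the GC content and length correction (green diamonds) and for the 3 NC libraries against TNF-α replicate 1 (orange squares). In all 5 settings 14 genes lie below 0, SCD and SREBF1 among them, and 3 lie above it (ELOVL1, FADS3 and ACSL5), while 11 cross it. Of these 3, ACSL5 met the filter only through the TNF-α group. The shares of all genes tested on each side are not given here.

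The surrounding pathway was given by 66 further genes in 7 lists, of which 55 were tested and none passed the threshold. At an unadjusted p under 0.05, 5 of the 55 were higher and 8 lower, beside 12.3% and 11.9% of all genes tested. There were 34 fold changes above and 21 below 0, and the median was 0.21. Among 11 genes of SREBP and liver X receptor control, all tested, the median was -0.03, and RXRA, the partner receptor of the liver X receptors, was lower in each TNF-α library at -0.58, -0.60 and -0.54 on the log2 scale (mean -0.57 ± 0.11, limma adjusted p = 0.0968). Of 8 genes of AMP-activated kinase, which inhibits the carboxylases, 5 were above and 3 below 0, and PRKAA2, a catalytic subunit, had the smallest p at -0.66 ± 0.25 (limma adjusted p = 0.195). Of 17 genes of carbon and NADPH supply 15 were tested, with a median of 0.29, and IDH1, the cytosolic NADP-dependent isocitrate dehydrogenase, was lower in each TNF-α library at -0.53, -0.85 and -0.82 (mean -0.73 ± 0.15, limma adjusted p = 0.106). All 5 genes of electron transfer to the desaturases were tested, with a median of 0.37, and CYB5A, the cytochrome b5 of the endoplasmic reticulum, was at 0.61 ± 0.18 (limma adjusted p = 0.195).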

How the data were processed

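RNA-seq of U251 cells was analysed in 6 libraries, grouped and numbered by their sample titles. The authors deposited FPKM per gene and library, neither pooled nor log-transformed. Gene identifiers, positions and exon lengths of all 58735 genes equalled GENCODE release 29 (GRCh38). The submitters' notes name HISAT2 2.0.5 and featureCounts 1.5.0, while the strand setting was not given in the sources used here. A further 6 columns of per-sample values match no sample described and were not used. The reads were recovered from FPKM times gene length, which came out whole for 100% of values (tolerance 0.01) once divided by the worth of 1 read in each library.

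Genes with at least 1 FPKM in at least 3 libraries (12136) were tested as log2(FPKM + 1) with limma 3.58.1 in R 4.3.3 (lmFit, eBayes with trend, two-sided). On that scale, on which all fold changes are given, changes of low genes are understated. Adjusted p-values are Benjamini-Hochberg values from limma over all genes tested, with 0.05 as threshold. The scripts were tested on simulated data. The GC content and length correction removed from each library a spline trend (5 degrees of freedom) of its log2 ratio. Tables and plots used Python 3.11.15, numpy 2.4.6, pandas 2.3.3 and matplotlib 3.10.9.

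The 35 genes, the other pathway lists, the markers and the motifs were chosen with earlier results of these data known. All 35 genes were accounted for singly, and of each other pathway list the gene with the smallest p was named. Among the TNF targets NFKBIA was named although its p was not the smallest. Counts over lists are descriptions without a test.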

Additional observations from a re-analysis of the deposited data

How the results depend on the processing

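There were 3 libraries per group, TNF-α replicates 2 and 3 stood apart in composition, and genes with few reads could not be compared. Over 20 alternatives, 2 of them (the GC content and length correction on the longest coding transcript and on the mean of coding transcripts) chosen after seeing the data, the fold changes of single genes kept their side of the threshold and their direction in 478 of 554 comparisons, passed the threshold in 38 and reversed in 39, with 1 gene (ELOVL7 against TNF-α replicate 1 alone) in both counts. The cause of each shift below was not tested.

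The 123 genes past the threshold became 58 without a filter on low values, 79 at 5 FPKM, 58 in TPM, 185 with quantile normalization, 77 with limma-voom, 338, 399 and 355 with the 3 GC content and length corrections (longest transcript, longest coding transcript, mean of coding transcripts) and 732 for the 3 NC libraries against TNF-α replicate 1 alone. They ranged from 10 to 9630 when 1 library was left out. The count of the 28 genes became 1 with quantile normalization, 2, 4 and 3 with the corrections and 3 against TNF-α replicate 1 alone, and ranged from 0 to 25 when 1 library was left out, where only leaving out TNF-α replicate 1 gave a call. The median over the 28 genes moved from -0.28 to -0.78 in TPM and -0.56 with limma-voom, where the median of all genes shifted to -0.42 and -0.21. Relative to all genes it was -0.37 and -0.35 there, against -0.32 before. This relative value was nearer to 0 with the 3 corrections (-0.25, -0.21 and -0.25), without a filter (-0.19) and against TNF-α replicate 1 alone (-0.093). It was farther from 0 at 5 FPKM (-0.48) and without TNF-α replicate 1 (-0.49). The median itself was -0.42 to -0.23 when 1 library was left out. For equal replicate numbers the deviations from the group means had correlations of -0.01, -0.18 and 0.12, and for unlike numbers -0.16 to 0.18. With 3 libraries per group these values cannot decide whether the replicate number pairs the libraries. With the replicate number as a block 24 genes and none of the 28 passed the threshold.

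Reversed fold changes were MLX -0.18, MID1IP1 -0.48 and ACSS2 -0.42 in TPM, MID1IP1 -0.12 with quantile normalization, MID1IP1 -0.041 and ACSS2 -0.0057 with median centring, and MID1IP1 -0.26 and ACSS2 -0.21 with limma-voom. With the correction on the longest transcript they were SLC25A1 -0.11, MLX -0.0059, MID1IP1 -0.24, ELOVL6 0.22, ACSS2 -0.28, HSD17B12 0.075 and ELOVL7 0.17. On the longest coding transcript they were SLC25A1 -0.12, MID1IP1 -0.15, ELOVL6 0.25, ACSS2 -0.20 and ELOVL7 0.22, and on the mean of coding transcripts MID1IP1 -0.13, ELOVL6 0.082, ACSS2 -0.36 and ELOVL7 0.21. When 1 library was left out, the fold changes that crossed 0 ranged from -0.017 to 0.050 for MID1IP1, from -0.024 to 0.15 for ACSS2 and from -0.45 to 0.18 for ELOVL7. Against TNF-α replicate 1 alone they were SLC25A1 -0.25, TECR -0.063, ACSL4 0.21, ELOVL6 0.079, ACSS2 -0.17, HSD17B12 0.20, ELOVL7 0.54, HACD1 -0.093 and ACSL1 0.094.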

Other observations

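Fatty acid synthesis in the mitochondrion, a separate pathway that supplies lipoate, was above NC for most of its genes in TNF-α replicates 2 and 3. Of 7 genes 6 were tested and none passed the threshold, 5 fold changes were above 0, and the median was 0.51 (-0.02, 0.83 and 0.69 for the TNF-α libraries in turn). NDUFAB1, its acyl carrier protein and a part of complex I, was at -0.03, 1.71 and 1.24 in TNF-α replicates 1 to 3 (mean 0.97 ± 0.43, limma adjusted p = 0.195).

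Acyl-CoA thioesterases, which release free fatty acids from their CoA esters, had 5 of 7 genes tested, with a median of 0.64 and none past the threshold. ACOT9, a mitochondrial form, was above NC in each TNF-α library, at 0.29, 0.99 and 0.92 (mean 0.73 ± 0.21, limma adjusted p = 0.195). Of 11 genes of fatty acid uptake and binding 5 were tested, with a median of -0.27 and none past the threshold. FABP3, a cytosolic fatty acid binding protein, was below NC in each TNF-α library, at -0.14, -0.64 and -0.53 (mean -0.44 ± 0.16, limma adjusted p = 0.195).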
